A study of Rattus norvegicus with 6 samples.

Results

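The Notch receptors, ligands and targets of pancreatic islets were followed in 12-month-old and 3-month-old rats. The family was grouped from *Dll1*, a strong rise in this same comparison, together with its relatives *Dll4*, *Jag1*, *Jag2*, *Notch1*, *Notch2* and *Notch3*, the Notch targets *Hes1* and *Hey1*, and *Neurog3*, a factor that Notch signalling holds down. Of these 10 genes 8 had a matched probe, each with 1 probe on a single spot, among 24684 probes for 13903 named genes. *Jag2* and *Hey1* had no matched probe. *Notch2* fell below the filter on dim probes, which left 7 members. As the family was chosen by the rise of *Dll1* between the ages, the age differences of its members are given as a description, with no p value.

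Total RNA came from islets of male Wistar rats, freed from the pancreas by collagenase digestion, and was labelled with Cy3 for 1-colour Arraystar/Agilent arrays. There were 3 arrays of 3-month-old and 3 of 12-month-old animals, with no treatment or genetic modification named for either age, and the comparison asks how islet transcripts change as the animals grow older. Islets are small groups of endocrine cells in the pancreas, and hormone genes were well above background on all 6 arrays, as were those of digestive enzymes from the surrounding exocrine tissue. In such bulk RNA, fewer cells of a type and less RNA per cell cannot be told apart. The series' text names 3 rats of each age, but does not say that each array is a single animal, and the errors cover the spread between these arrays.

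Notch is a receptor through which neighbouring cells signal by contact. Delta-like and Jagged ligands on one cell bind Notch receptors on the next, the receptor is cut, and its inner part enters the nucleus, where it joins the DNA-binding protein RBPJ and switches on genes of the Hes and Hey families. In the embryonic pancreas, HES1 represses *Neurog3*, the gene that starts endocrine differentiation, so that Notch signalling delays the formation of islet cells. In the adult pancreas, Notch components are also known from vessels, ducts and other cells around the endocrine cells.

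The promoters of 8 members were found in RefSeq (assembly GRCr8), where *Dll1* lies on chromosome 1, *Notch2* on chromosome 2, *Jag1* and *Notch1* on chromosome 3, *Jag2* on chromosome 6, *Notch3* on chromosome 7, *Hes1* on chromosome 11 and *Neurog3* on chromosome 20. The array design used another assembly. The 250 bases before the start of transcription are shown for the Notch target *Hes1* and for *Dll1* and *Notch3*, the members with the largest age differences. All 3 genes lie on the minus strand, and each sequence reads in the direction of its gene. Capitals mark the core motif of RBPJ, TGGGAA, which reads TTCCCA where it lies on the other strand.
Hes1, chr11:84213046-84213295: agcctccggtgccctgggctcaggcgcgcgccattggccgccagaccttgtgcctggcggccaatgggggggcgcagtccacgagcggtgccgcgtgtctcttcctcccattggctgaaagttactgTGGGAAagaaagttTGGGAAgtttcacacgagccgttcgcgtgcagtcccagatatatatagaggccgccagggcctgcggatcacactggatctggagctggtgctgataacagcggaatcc
Dll1, chr1:64993275-64993524: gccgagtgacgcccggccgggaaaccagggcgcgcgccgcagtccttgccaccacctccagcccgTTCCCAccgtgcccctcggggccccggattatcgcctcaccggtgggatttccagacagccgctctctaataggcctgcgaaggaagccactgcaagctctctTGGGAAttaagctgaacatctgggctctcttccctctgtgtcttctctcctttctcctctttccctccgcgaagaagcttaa
Notch3, chr7:11834586-11834835: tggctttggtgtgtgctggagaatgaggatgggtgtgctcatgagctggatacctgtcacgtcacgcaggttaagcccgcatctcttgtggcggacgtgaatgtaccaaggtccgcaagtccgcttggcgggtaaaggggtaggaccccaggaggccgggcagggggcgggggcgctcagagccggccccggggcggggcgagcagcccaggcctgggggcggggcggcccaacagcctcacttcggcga

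The *Hes1* promoter held 2 such motifs, both in the gene's own direction, and the *Dll1* promoter held 2, with 1 on each strand. No other member with a promoter held one in these 250 bases. The motif was found, on either strand, in 22.1% of 33469 rat promoters of this length, and 2.71% held 2 or more. The N-box CACNAG, to which HES1 itself binds, was searched in the same way. It occurred 4 times before *Hes1*, 4 times before *Notch1*, where 1 pair shares letters, and once before *Notch3*. In *Hes1* it did not overlap TGGGAA. It was found in 37.2% of all promoters, with 2 or more in 8.02%. These matches describe letters in the sequence and not binding.

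The 3-month arrays were scanned together and the 12-month arrays in another scan, and the effects of scan and age cannot be told apart here. On 3-month arrays 73.1% to 77.5% of probes were well above background, on 12-month arrays 59.5% to 64.2%. The uncorrected signal of the negative control spots was 29.5 to 31 units on 3-month and 89.5 to 91 units on 12-month arrays. The 75th percentile of the background-subtracted signal was 353, 1190 and 1460 units on 3-month arrays 1, 2 and 3 and 2610, 2170 and 1190 units on 12-month arrays 1, 2 and 3. Levels below are quantile-normalised log2 signals, an age difference is the 12-month mean minus the 3-month mean of these, and a level cannot be set against that of another probe. Each member's 6 values are given for 3-month arrays 1, 2 and 3 and then 12-month arrays 1, 2 and 3.

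*Dll1* encodes a Delta-like ligand that is known to keep progenitors undifferentiated in the developing pancreas. Its levels were 2.12, 2.09 and 2.20 at 3 months and 6.47, 6.89 and 7.20 at 12 months. All 12-month arrays lay above all 3-month arrays, but on the 3-month arrays the spot was never well above background, so that the 3-month level is only a bound. The 12-month mean was 6.86 ± 0.36 (SD, n = 3), and against the dimmest signal that was well above background on each 3-month array *Dll1* was at least 14.2-fold higher at 12 months. The bound was 11.4-fold after a shift of the arrays to a common 75th percentile and 10.8-fold in the log2 table of the authors. It was 2.38-fold after normexp background correction of the median signals. That setting adds an offset of 50 to each signal, whose part in the lower bound was not tested. Leaving out each array in turn gave bounds of 12.6-fold to 16.3-fold in the quantile-normalised values.

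The scanner values of the *Dll1* spot showed the same separation without normalisation. The uncorrected median signal was 33, 33 and 35.5 units at 3 months, next to a local background of 24, 25 and 23.5 units. At 12 months it was 226, 239 and 219.5 units, next to a local background of 32.5, 34 and 38.5 units. The 3-month spots were thus close to the negative controls of their arrays, and the 12-month spots stood clear of the higher negative controls of theirs. On the log2 scale *Dll1* lay 1.77 to 2.21 above the dimmest signal well above background on 12-month arrays.

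**Figure D1:**
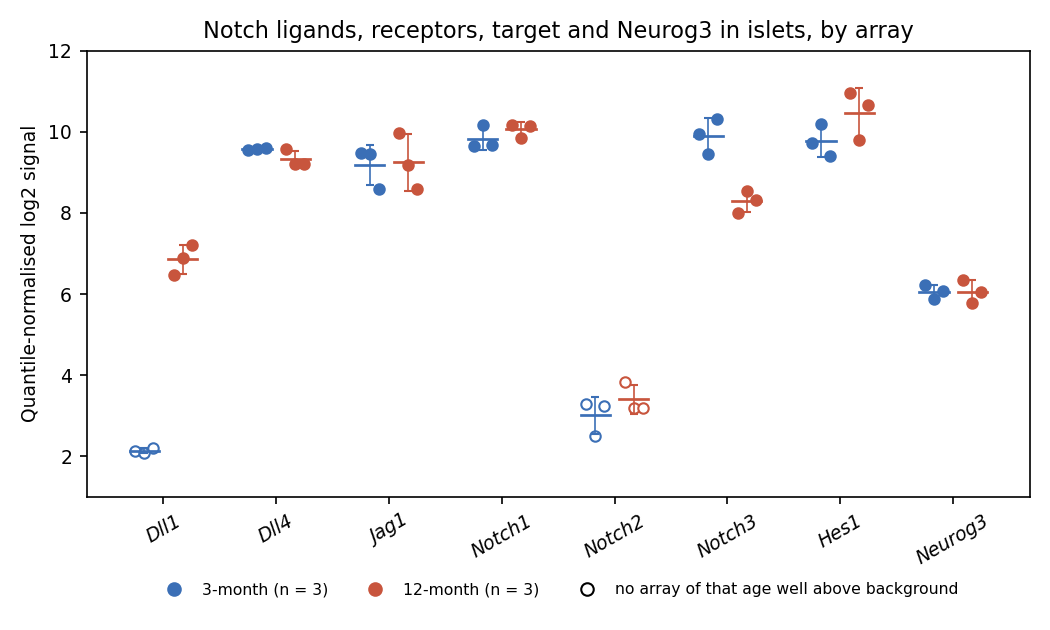
Quantile-normalised log2 signal (y axis) of the 8 members with a matched probe (x axis), with 3 arrays of each age as points and the mean and SD as lines. Open points mark members without an array of that age well above background. *Dll1* moves from 2.09 to 2.20 at 3 months to 6.47 to 7.20 at 12 months, *Notch3* lies lower on each 12-month array, and the ages overlap in the other 6 members.

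The other ligands with a probe did not separate the ages. *Dll4*, the Delta-like ligand of endothelial cells, had levels of 9.55, 9.58 and 9.60 at 3 months and 9.57, 9.20 and 9.20 at 12 months. The first 12-month array lay among the 3-month arrays, the others below them, and the age difference was -0.26 (limma SE 0.23). *Jag1*, a Jagged ligand, had levels of 9.47, 9.45 and 8.60 at 3 months and 9.97, 9.19 and 8.58 at 12 months. The arrays of each age spread over more than the age difference of 0.07 (limma SE 0.43), whose sign turned without 3-month array 3 (-0.21) or without 12-month array 1 (-0.29).

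Of the 3 receptors with a probe, *Notch3* was the one whose ages did not overlap. *Notch1*, a broadly expressed receptor, had levels of 9.65, 10.17 and 9.68 at 3 months and 10.18, 9.86 and 10.14 at 12 months. The ages overlapped, with a difference of 0.23 (limma SE 0.26). *Notch2*, a receptor known from pancreatic progenitors and ducts, had levels of 3.29, 2.49 and 3.25 and then 3.82, 3.20 and 3.19. None of the 6 spots was well above background, and no fold is given.

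*Notch3*, the receptor known for its place in smooth muscle cells and pericytes of vessels, was lower at 12 months. Its levels were 9.95, 9.45 and 10.32 at 3 months and 8.00, 8.54 and 8.33 at 12 months. Each 12-month array lay below each 3-month array, with means of 9.90 ± 0.44 and 8.29 ± 0.27 (SD, n = 3). The age difference was -1.62 (limma SE 0.31), a 3.07-fold lower level, and all 6 spots were well above background. The difference stayed between -1.85 and -1.41 in all 16 alternatives that gave one, left-out arrays included. Of these, the filters, the block of 3 pairs and a mean over its 1 probe could not change it.

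The uncorrected signal of the *Notch3* spot did not itself separate the ages, at 295.5, 665 and 1410 units on 3-month arrays and 567, 623 and 361.5 units on 12-month arrays. The lowest of these was on the 3-month array whose 75th percentile was the lowest. The lower *Notch3* level at 12 months is therefore a level relative to the other probes of each array, as is each normalised value here.

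**Figure D2:**
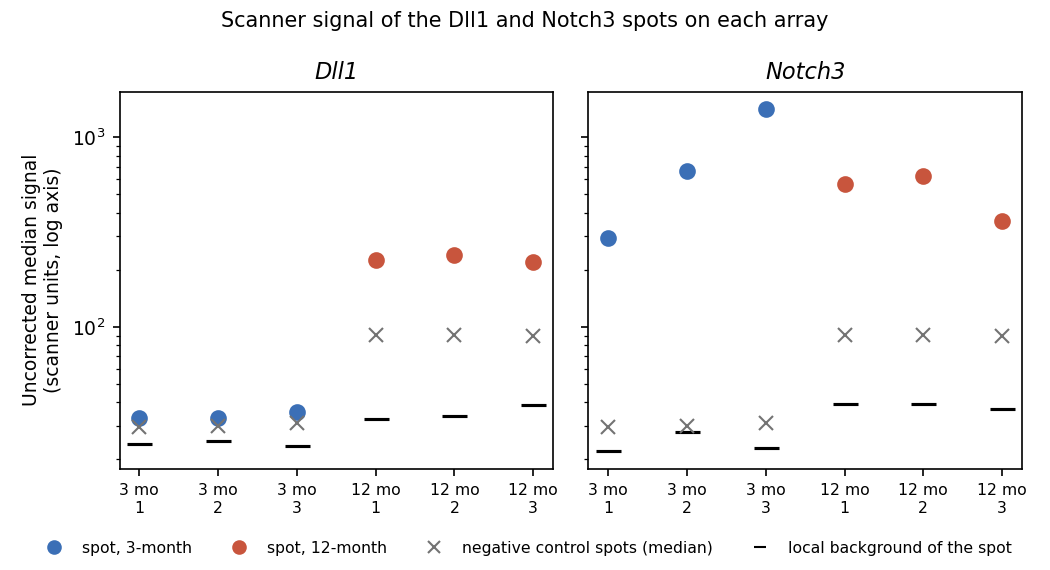
Uncorrected median signal in scanner units (y axis, log scale) of the *Dll1* spot (left) and the *Notch3* spot (right) on each of the 6 arrays (x axis), with the median negative control and the local background of the spot. *Dll1* lies near the negative controls at 3 months (33 to 35.5 units) and above them at 12 months (219.5 to 239 units), while the *Notch3* spot stands above both on all arrays.

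*Hes1*, the transcriptional repressor that is the best-known Notch target and whose promoter is shown above with its RBPJ motifs, had levels of 9.72, 10.19 and 9.42 at 3 months and 10.97, 9.80 and 10.65 at 12 months. At 12 months 2 arrays lay above all 3-month arrays, but array 2 lay within them. The difference of 0.70 (limma SE 0.38) was a 1.62-fold higher level at 12 months with overlapping ages, and reached 1.03 without 12-month array 2.

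*Neurog3*, the factor that opens endocrine differentiation and is itself repressed by HES1, had levels of 6.23, 5.89 and 6.07 at 3 months and 6.34, 5.77 and 6.05 at 12 months. The spot was well above background on all 6 arrays, and the ages overlapped almost fully. The difference was -0.01 (limma SE 0.25) and became -0.36 after the shift to a common 75th percentile. That shift moved the median of all tested probes from -0.17 to -0.40.

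Of the 7 members above the filter, 2 were past an adjusted p of 0.05 (limma, Benjamini-Hochberg over all tested probes), *Dll1* higher and *Notch3* lower. The same 2 were past the study's threshold, an unadjusted p under 0.05 together with a change of more than 2-fold, and the same 2 had ages that did not overlap. Over all 17941 tested probes 8.37% were past the adjusted threshold and 22.0% past the study's, and 39.2% of the 17874 probes with a value on each array did not overlap. *Dll1* passed the filter through its 12-month arrays alone, and since the family was chosen on this comparison, nothing is read from the 2 of 7. The median difference of the 7 members was 0.07, next to -0.17 over all tested probes. *Notch3* left the adjusted calls without 3-month array 1 or 3 or 12-month array 1 or 3, where 1 member remained called, and kept the study's threshold in each alternative.

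**Figure D3:**
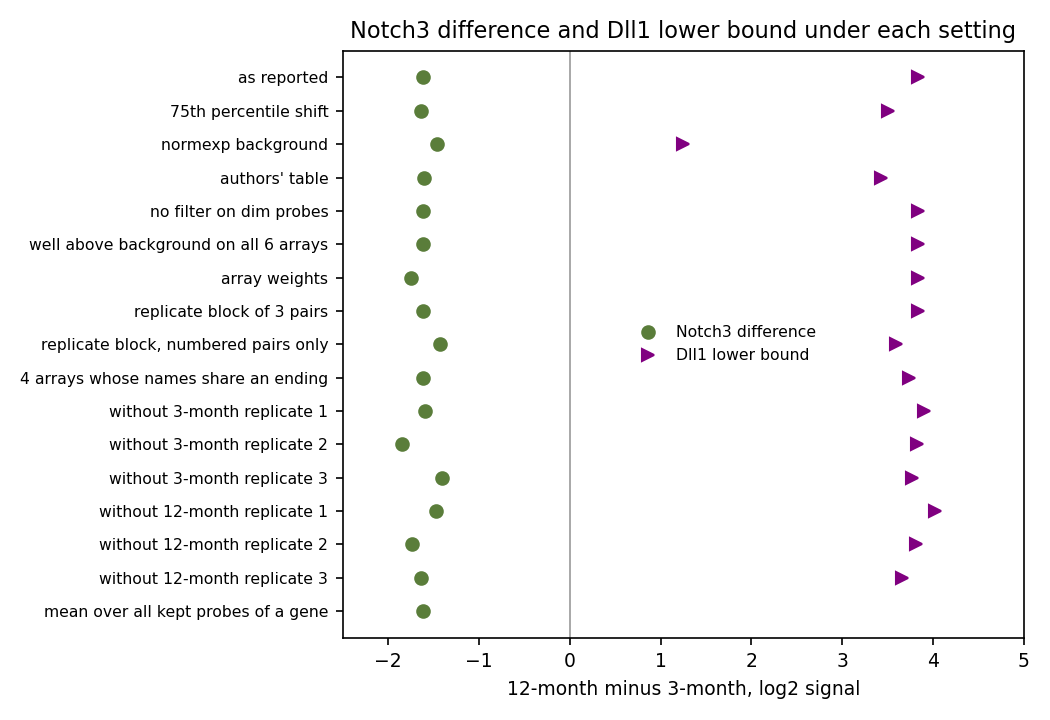
Age difference on the log2 scale (x axis) of *Notch3* (circles) and lower bound on that of *Dll1* (triangles) under each processing setting (y axis), with left-out arrays included. *Notch3* lies between -1.85 and -1.41 throughout, and the *Dll1* bound lies between 3.43 and 4.02 except for 1.25 after normexp background correction. The filters and the block of 3 pairs cannot change either value. Array weights cannot change the bound, and a mean over its 1 probe cannot change *Notch3*. The bound is also drawn for the filter on all 6 arrays, where *Dll1* was not tested.

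By its values over the 6 arrays, *Dll1* was most like *Rbm27*, which encodes an RNA-binding protein (Pearson r 0.9993), *Lig4*, which encodes a DNA ligase (0.9985), and *Pskh1*, which encodes a kinase (0.998). *Rbm27* and *Lig4* were, like *Dll1*, well above background on no 3-month array. *Notch3* was most like *Rc3h2* (0.9963), *Fbxo31*, an F-box gene (0.9953), and *Cyb5d2* (0.9942). Of 11149 genes compared, 290 had an r above 0.95 with *Dll1* and 296 with *Notch3*. These are descriptions over 6 arrays that share the age groups and their scans, and so many genes follow either pattern that the 3 names carry little.

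The rest of the Notch pathway was taken as 61 genes, of which 42 had a matched probe and 39 passed the filter. At an adjusted p of 0.05 (limma) 0 were higher and 2 lower at 12 months, or 5.13% of the 39, next to 8.37% of all probes. By the study's threshold there were 3 higher and 3 lower, or 15.4%, next to 22.0%. At an unadjusted p of 0.05 there were 3 higher and 4 lower, next to 32.4% of all probes called in either direction. Without overlap between ages 4 were higher and 6 lower, next to 39.2% of all probes, and the methods' t-test called 0 after adjustment. The median difference was -0.14, and 16 differences were positive and 23 negative.

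The 2 lower genes were a ligase of the sending cell and a target of the receiving cell. *Neurl1b*, a ubiquitin ligase that helps ligands to be taken up by the sending cell, had levels of 5.67, 4.63 and 4.93 at 3 months and 2.09, 3.57 and 2.11 at 12 months. No 12-month spot was well above background. The gene was at least 1.21-fold lower at 12 months, a bound of 1.77-fold after the percentile shift and 1.14-fold after normexp. It passed the filter through its 3-month arrays alone, so its call rests on dim 12-month values, and it was called in 6 of the 17 alternatives that tested it, not after normexp. *Hes2*, a repressor of the Hes family, had levels of 7.98, 7.26 and 6.97 and then 5.10, 5.71 and 5.32. The ages lay well apart, with a difference of -2.03 (limma SE 0.34, adjusted p 0.0212), which became -1.08 after normexp and passed in 9 of 17 alternatives with adjusted p values from 0.00789 to 0.291. On the 12-month arrays 2 of its 3 spots were well above background, so the size of its difference rests in part on a dim value. Without single arrays, *Neurl1b* passed only without 12-month array 2, and *Hes2* only without 3-month array 2 or 3 or 12-month array 2.

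Role by role, the ligands and receptor outside the family had 0 of 4 past the adjusted threshold. *Dlk2*, a Delta-like protein without the classical Notch-binding domain, differed by -0.16 (adjusted p 0.863; -0.58 to 0.47 with 1 array left out), and *Notch4*, the receptor of endothelial cells, by -0.10 (limma SE 0.29, adjusted p 0.827). Of 2 genes of ligand endocytosis, *Neurl1b* was called, and *Mib1*, the other ubiquitin ligase of ligands, was well above background on no 12-month array. Among 3 sugar-adding enzymes that tune which ligand a receptor accepts, 0 were called, and *Mfng* differed by 1.14 (adjusted p 0.323), or by 0.37 without 3-month array 3. The differences of the 5 genes of receptor cleavage ranged from -0.43 to 0.02, and *Psenen*, a subunit of gamma-secretase, differed by 0.02 (limma SE 0.26, adjusted p 0.963).

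In the nucleus the picture was mixed. *Rbpj*, which encodes the DNA-binding partner of Notch, differed by -0.76 (adjusted p 0.18), and of the 7 genes of the nuclear complex 0 passed the adjusted threshold and 2 an unadjusted p of 0.05. *Kat2b*, a histone acetyltransferase of the activating complex, had levels of 11.23, 11.90 and 10.97 and then 12.40, 12.45 and 12.48. Its ages did not overlap, but the difference of 1.08 (limma SE 0.30) missed the threshold (adjusted p 0.0681). *Kat2b*, *Crebbp*, another acetyltransferase, and *Tle4*, a corepressor, were the 3 genes higher by the study's threshold, and the last 2 are named because of their values. *Tle4* passed the adjusted threshold after the shift to a common 75th percentile, after normexp and with array weights. Of 9 corepressors 0 passed, with *Tle4* alone past an unadjusted p of 0.05, and *Ctbp1* differed by -0.18 (adjusted p 0.591).

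Of 6 negative regulators 0 passed, and *Dtx2*, a ubiquitin ligase of the Deltex family, differed by -0.96 (limma SE 0.31, adjusted p 0.0948) without overlap between ages. Of 3 further target genes above the filter, *Hes2* was the 1 past the adjusted threshold and the 1 whose ages did not overlap. *Heyl* differed by -0.43 (limma SE 0.28, adjusted p 0.313) with overlapping ages. *Hes5*, past the study's threshold only and named because of its values, was well above background on no 12-month array. In its mean it was at least 1.61-fold lower there, a bound of 2.28-fold after the percentile shift and 1.20-fold after normexp. Its normalised values overlapped between the ages (limma adjusted p 0.126). *Hes3* and *Hes7* fell below the filter.

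**Figure D4:**
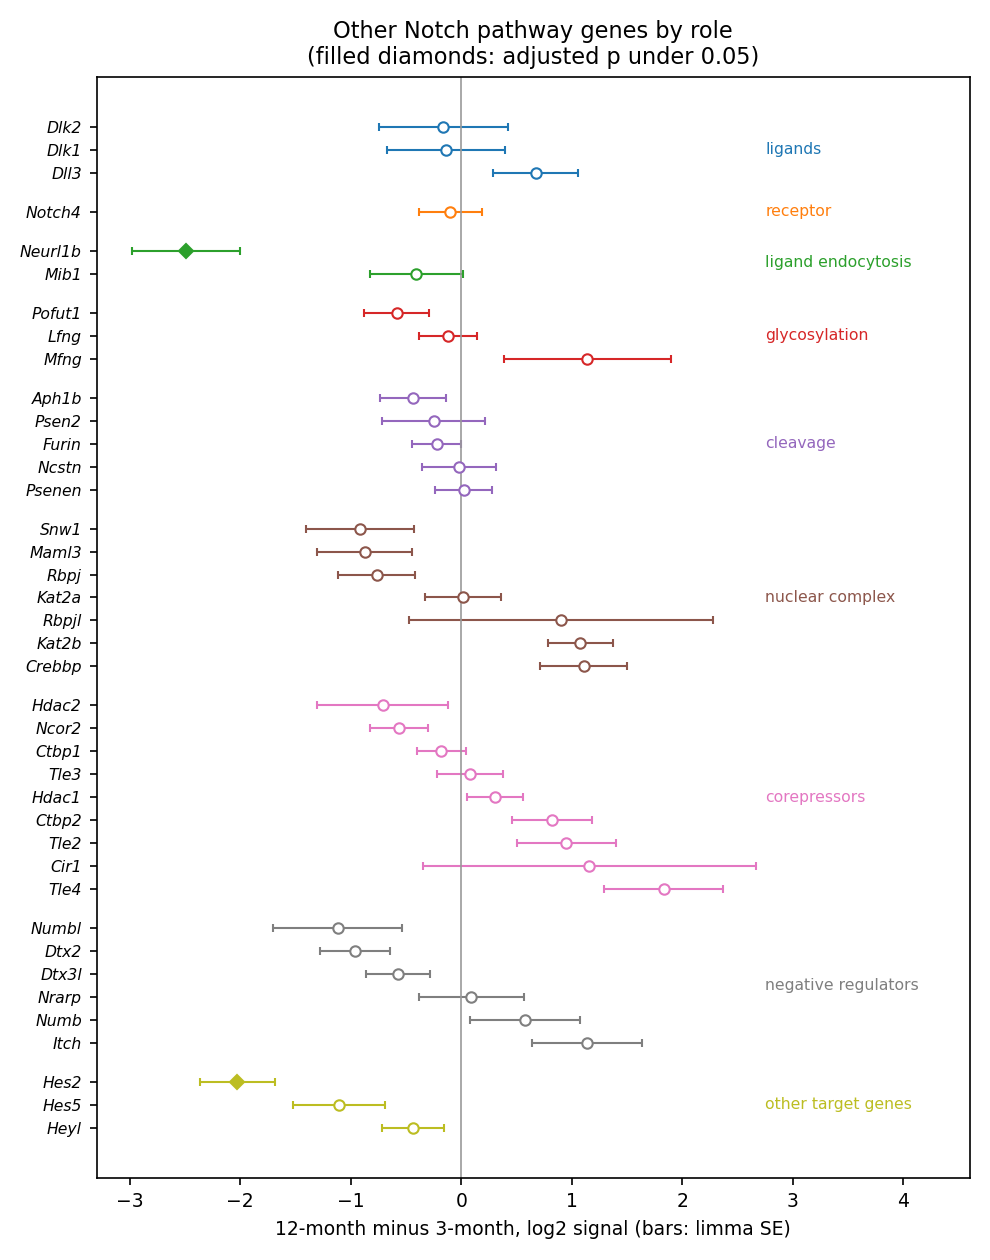
Age difference on the log2 scale (x axis, bars are the limma SE) of the 39 other Notch pathway genes, by role (y axis). Filled diamonds mark *Neurl1b* and *Hes2*, past an adjusted p of 0.05. *Neurl1b*, *Mib1*, *Hdac2* and *Hes5* were above background on no 12-month array, so their points are fitted values and not measured folds.

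While *Neurog3* itself did not separate the ages, several factors that act with or after it did. Of 11 such genes 8 had a matched probe, *Pax4* fell below the filter, and of the 7 tested 4 were higher and 0 lower at an adjusted p of 0.05 (limma), or 57.1%, next to 8.37% of all probes. One of the 4, *St18*, passed the filter through its 12-month arrays alone, and with a filter on all 6 arrays 3 of 5 were called. At an unadjusted p of 0.05 there were 5 higher and 0 lower, next to 32.4% of all probes in either direction. The median difference was 1.19, next to -0.17. *Neurod1*, a direct target of NEUROG3 that sustains beta cells, was on average 11.87 ± 0.36 at 3 months and 14.07 ± 0.24 at 12 months (SD, n = 3), and rose by 2.20 (limma SE 0.28, adjusted p 0.0108). The study picked *Neurod1* from these arrays for qPCR and reported it induced at 12 months there too. As the gene was picked from these arrays, it is no independent evidence of the direction of the list. *Pax6* was, with *Neurod1*, in the study's pathway for maturity onset diabetes of the young among genes higher on these arrays. The list itself was chosen with earlier results of these data known, so its count is a description.

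*Isl1*, a homeobox factor of all islet cell types, had levels of 5.11, 5.45 and 4.94 at 3 months and 8.24, 7.76 and 9.26 at 12 months. All 12-month arrays lay higher, by 3.25 in the mean (limma SE 0.41, adjusted p 0.0106), or by 2.10 after normexp. *St18*, a zinc finger factor of endocrine cells, had levels of 2.02, 2.25 and 3.20 and then 5.95, 7.77 and 6.99. Like *Dll1* it was well above background on no 3-month array, and its 12-month level was at least 13.7-fold that at 3 months, a bound of 10.5-fold after the percentile shift and 2.67-fold after normexp. *Pax6*, which maintains hormone genes, rose by 1.19 (limma SE 0.28, adjusted p 0.0489). That call was lost after the percentile shift (adjusted p 0.114) and without any 1 array, where 3 factors passed. Among the tested factors that did not pass, *Myt1* differed by -0.10 (adjusted p 0.823) and *Neurod2* by -0.45 (adjusted p 0.424).

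**Figure D5:**
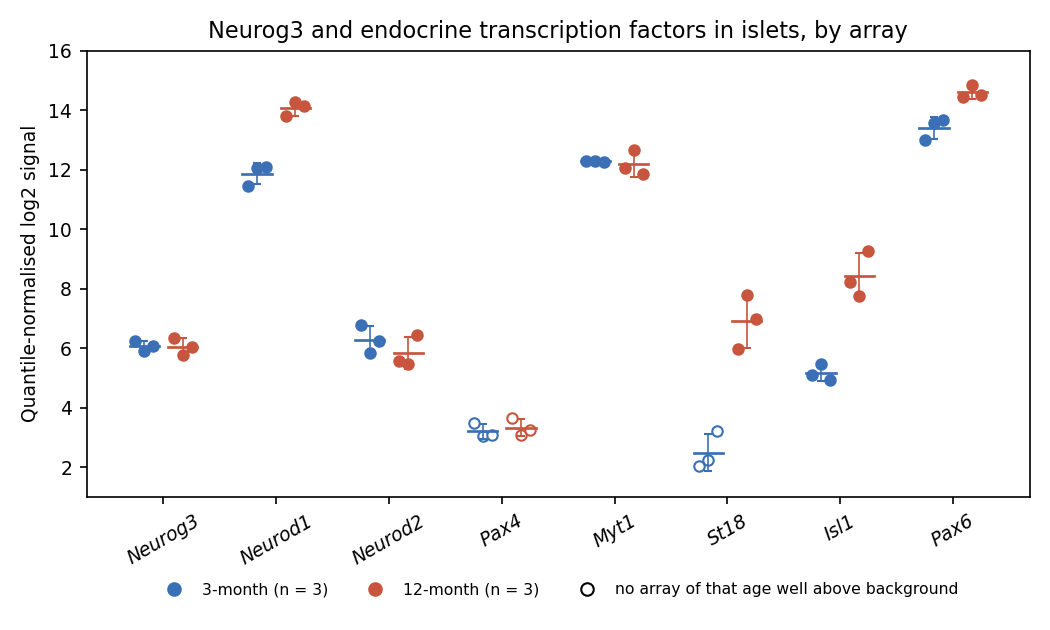
Quantile-normalised log2 signal (y axis) of *Neurog3* and of 7 of the factors acting with or after it (x axis), 3 arrays of each age as points with the mean and SD as lines. Open points mark genes well above background on no array of that age. *Neurog3* stays between 5.77 and 6.34 on all arrays, while *Neurod1*, *St18*, *Isl1* and *Pax6* lie higher on each 12-month array.

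Markers of the cell types that carry Notch components moved in part with age, and their part in the values above was not tested. Beside *Notch3*, 9 mural markers had a mean level of 8.80 to 9.93 on 3-month and 9.73 to 10.61 on 12-month arrays, with a median difference of 0.72. The 8.80 was on 3-month array 3, where *Des* had no value and was left out of the mean. On 3-month arrays 1 and 2 *Des* was bright, at 13.07 and 12.73, so the low end is partly due to the missing value. The channel subunit *Abcc9* rose by 2.82 (limma SE 0.42, adjusted p 0.0162; 2.21 after normexp) and the receptor *Pdgfrb* by 1.68 (limma SE 0.38, adjusted p 0.0453). The contractile gene *Cnn1* fell, with a difference of -1.84 (limma SE 0.39, adjusted p 0.0375), and *Tagln*, another contractile gene, differed by -0.78 (adjusted p 0.338). These called genes passed in 7 to 10 of 18 alternatives, with the same sign in each. *Cnn1* was lost without any 1 array, *Abcc9* without 3-month array 3 or 12-month array 1 or 3, and *Pdgfrb* without any of these or 3-month array 1. At the adjusted threshold 2 of the 9 were higher and 1 lower, or 33.3%, next to 8.37% of all probes. By the study's threshold 4 were higher and 1 lower, or 55.6%, next to 22.0%. The list thus held changes in both directions.

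Beside *Dll4*, *Notch4* and *Notch1*, 9 endothelial markers had a mean level of 9.25 to 9.51 at 3 months and 8.38 to 8.89 at 12 months, with a median difference of -0.75. The junction gene *Cldn5* fell, by -2.31 as a log2 difference (limma SE 0.43, adjusted p 0.0271) and was the 1 gene past the adjusted threshold, with 0 higher. By the study's threshold 1 was higher and 3 lower, or 44.4%, next to 22.0% of all probes, and 3 of the 9 differences were positive. *Cdh5*, 1 of the 3 lower genes, was well above background on no 12-month array and at least 1.54-fold lower there. It passed the filter through its 3-month arrays alone, as did *Erg*, whose difference was positive. Both stay in the counts and the list level. The adhesion gene *Pecam1*, named because of its values, differed by 1.23 (limma SE 0.46, adjusted p 0.124) and lay higher on each 12-month array, while *Plvap* differed by -0.59 (adjusted p 0.194). *Cldn5* passed in 9 of 18 alternatives and was lost without 3-month array 1 or 3 or 12-month array 1 or 3. Among 5 Schwann cell markers above the filter, *Sox10* (-2.08, adjusted p 0.0335, with a 3-month value missing; -1.43 after normexp) and *Mbp* (-1.98, adjusted p 0.0184) fell. These 2 were 40% of the 5, next to 8.37% of all probes at the adjusted threshold. *Sox10* passed in 8 of 18 alternatives and, with 1 array left out, only without 12-month array 2, while *Mbp* passed in 9 and was lost without 3-month array 1 or 3 or 12-month array 1 or 3. Their mean level was 8.87 to 8.98 at 3 months and 7.26 to 7.96 at 12 months, while *Erbb3* and *Cdh19* were well above background on no array.

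Beside *Neurod1*, *Isl1* and *Pax6*, 7 beta cell markers had a median difference of 0.95 and a mean level of 14.32 to 14.52 at 3 months and 15.65 to 16.14 at 12 months. The glucose transporter gene *Slc2a2* rose by 4.11 (limma SE 0.35, adjusted p 0.00369) and the zinc transporter gene *Slc30a8* by 3.71 (limma SE 0.44, adjusted p 0.00904), while *Ins1* differed by 0.10 (adjusted p 0.786), or by -0.67 after the percentile shift. Of 7 markers of other endocrine cells *Hhex*, a delta cell factor, rose by 1.68 (limma SE 0.29, adjusted p 0.0236) and *Ppy* differed by 0.44 (adjusted p 0.195), or by -0.04 after the percentile shift, and the median was 0.44. At the adjusted threshold 2 beta cell markers (28.6% of 7) and 1 other endocrine marker (14.3% of 7) were higher, and 0 lower. The share over all probes was 8.37%. *Hhex* passed in 9 of 18 alternatives and was lost without 3-month array 1 or 3 or 12-month array 1 or 3. *Slc2a2* and *Hhex* were also in the study's diabetes pathway of genes higher on these arrays, so neither is independent evidence of the direction of its list. The study reported *Slc2a2* as induced by qPCR too, among genes picked from these pathways. No gene passed among 6 duct markers (median 0.17), 10 acinar markers (median 0.08) and 8 immune markers (median -0.09), and the brightest of them, *Epcam*, *Cela2a* and *Csf1r*, had adjusted p values of 0.0579, 0.914 and 0.182. At an unadjusted p of 0.05 there was 1 duct gene, *Epcam*, and 0 acinar and 0 immune genes, next to 32.4% of all probes.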

How the data were processed

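Islet RNA was compared between 3 arrays of 3-month-old and 3 of 12-month-old rats. Per the file headers, the deposited scanner files hold spot intensity from Agilent Feature Extraction 11.0.1.1, as a background-subtracted intensity (used here) and as uncorrected medians, without normalisation between arrays. The authors also deposited quantile-normalised log2 values of 12145 probes, which followed the values computed here (lowest r across probes 0.9996). Their filter is not given in the sources used here. Arrays have no read depth, and their number limits the precision.

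The log2 background-subtracted intensity was averaged over spots of a probe not marked as outliers and quantile normalised over 24684 probes. Probes well above background on at least 3 of 6 arrays were kept, and 17941 were tested with limma 3.58.1 in R 4.3.3 (lmFit, eBayes, two-sided, no block), with Benjamini-Hochberg adjustment over all of them. The fit was checked on simulated data first. An exact permutation test of 3 against 3 cannot go below a two-sided p of 0.1.

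Probes were named by RefSeq accession against assembly GRCr8. Members and gene lists (Notch pathway, factors with or after *Neurog3*, and beta, other endocrine, endothelial, mural, duct, acinar, immune and Schwann cell markers) were chosen with earlier results of these data known. Named were all members, list genes past the adjusted threshold (up to 3 in a list of markers or *Neurog3* factors), the brightest gene of each role or list, and the 3 genes most like the members with the largest rise and fall. *Rbpj*, *Myt1* and *Neurod2* were added. A few list genes are left unnamed in the text but stay in every count and list level. For a gene that no array of an age showed well above background, the fold is a bound. Each dim array was given its lowest signal well above background, or the probe's value where that was higher, and the mean of these was set against the brighter mean. The 12-month array numbered 3 carries no number in the labels.

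Alternatives were a 75th percentile shift, normexp (offset 50) on median signals, the authors' table, other filters, a variance trend, array weights, replicate blocks, 4 arrays with names that end alike, leaving out each array, and plain and paired t-tests. Running them on the *Neurog3* factors, the named genes outside the family and the bounds of other genes was chosen after seeing the data.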

Additional observations from a re-analysis of the deposited data

How the results depend on the processing

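Counts over the members rest on the comparison by which the family was chosen and are given as a description. Against 2 members past the adjusted threshold, 1 passed where probes had to be well above background on all 6 arrays (*Dll1* was then not tested) and with the methods' t-test, 0 with 4 arrays that have a common ending in their names, and 1 to 2 with 1 array left out. By the study's threshold, 1 member passed, against 2, with the filter on all 6 arrays, and 2 to 3 with 1 array left out, where *Hes1* joined without 12-month array 2. *Notch3* passed the adjusted threshold in 9 of 18 alternatives. Of the other pathway genes, against 2, 0 passed with the filter on all 6 arrays, the methods' t-test or the 4 arrays, 6 with array weights, and 0 to 2 with 1 array left out. By the study's threshold, against 6, 3 passed with normexp, 2 with the filter on all 6 arrays, and 3 to 11 with 1 array left out, the extremes being 3 without 3-month array 3 and 11 without 3-month array 2. Of the factors with or after *Neurog3*, against 4, 1 passed with the methods' t-test, 0 with the 4 arrays, and 3 with any 1 array left out. The cause of these shifts was not tested. A filter or a left-out array also leaves a smaller number of probes or arrays, whose part was not tested either.

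Replicate numbers did not pair the arrays: the correlations of deviations were -0.0104, -0.311 and -0.26, and 0 of 6 arrays correlated best with their own number. With the replicate block of 3 pairs 1 member, 0 other pathway genes and 1 *Neurog3* factor passed the adjusted threshold. With the block over the numbered pairs only 0 members, 0 pathway genes and 0 factors did, and with the paired t-test over the 3 pairs 0, 0 and 0, while 2 pathway genes passed the study's threshold. Dim spots set the limit on 12-month arrays, where the lowest log2 signal well above background was 4.26 to 5.13, next to 2.89 to 3.17 on 3-month arrays.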
